A study of Homo sapiens with 2 samples.

Results

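The clustered protocadherins are a family of cadherin-like adhesion genes that lie side by side on chromosome 5 in an alpha, a beta and a gamma cluster. They were taken as the rows of the gene table whose symbol is PCDHA, PCDHB, PCDHGA or PCDHGB followed by a number, or PCDHAC or PCDHGC followed by 1 digit. The rule found 24 genes among the 28038 listed, namely 4 alpha, 1 beta and 19 gamma genes. GENCODE release 29 holds 54 genes with such names on GRCh38, over chr5:140786136-141512981, all on the plus strand, 1 of them (PCDHA14) a pseudogene. The other 30 (12 alpha, 15 beta and 3 gamma) have no row in the table, which lists no gene at 0 counts in both libraries, and are not analysed here.

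Poly(A) RNA had been sequenced from 2 cultures labelled OVCAR-3, a widely used cell line from a human ovarian carcinoma. OVCAR3-OE overexpresses IGF2BP3, which binds m6A-marked RNA, and OVCAR3-NC is the control that received a blank viral vector. Each group is 1 library, so there is no replicate error and no p-value, every difference is between these libraries, and intervals are exact 95% ones that cover counting error only. The libraries held 48017861 counts (OVCAR3-OE) and 43190215 counts (OVCAR3-NC), and IGF2BP3 itself had 6376 counts in OVCAR3-OE against 2944 in OVCAR3-NC. No clone, passage or pool is described for either culture.

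Of 12 markers of epithelial and ovarian carcinoma cells the table lists 8, and all but 1 were below 10 CPM (counts scaled to 1000000 per library) in both libraries. CDH1, the epithelial cadherin, had 2 counts in each. The marker above 10 CPM was KRT18, an epithelial keratin, at 102 CPM in OVCAR3-OE and 103 CPM in OVCAR3-NC. The 8 listed epithelial and ovarian markers summed to 108 CPM in OVCAR3-OE and 109 CPM in OVCAR3-NC. OVCAR-3 is known as an epithelial line that expresses CDH1, EPCAM and PAX8. EPCAM had 56 counts in OVCAR3-OE and 57 in OVCAR3-NC, PAX8 had 32 and 28, the keratin gene KRT8 185 and 187, KRT19 0 and 2, and WFDC2 0 and 4, so the marker levels of both libraries go against the labelled line, and the identity of the cells was not tested. Clustered protocadherins are best known from neurons, so neural markers were looked at as well. Of 8 such markers, 6 were listed, with a summed level of 67.1 CPM in OVCAR3-OE and 39.8 CPM in OVCAR3-NC. MAP2, a microtubule protein of dendrites, made most of it, with 2798 counts in OVCAR3-OE and 1217 in OVCAR3-NC, while the other 5 were below 10 CPM in both libraries. The other markers with at least 50 counts were lower in OVCAR3-OE: TUBB3, a neuronal tubulin, had 93 counts in OVCAR3-OE and 128 in OVCAR3-NC, a ratio of 0.658 (0.498 to 0.866), and SYP, a synaptic vesicle protein, had 280 and 345, a ratio of 0.735 (0.625 to 0.863). NCAM1 had 28 counts in OVCAR3-OE and 6 in OVCAR3-NC, RBFOX3 10 and 18, and ELAVL3 2 and 9. Their part in the protocadherin values was not tested.

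Each alpha or gamma gene has a large first exon of its own, read from its own promoter, which encodes the extracellular cadherin repeats, the membrane span and the start of the cytoplasmic tail. That exon is spliced to constant exons at the 3-prime end of the cluster, which encode the end of the tail common to all members, whereas beta genes have no such shared exons. In neurons most of these promoters are chosen at random in each cell, the C-type genes are expressed more evenly, and the resulting protein combinations mark cell identity through like-to-like binding. Promoter choice is known to depend on DNA methylation and on CTCF and cohesin, which loop a promoter to distant enhancers.

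The shared exons are shown because they decide what the counts can say. In GENCODE 29, 22 gamma genes share an exon of 59 bases and one of 89 bases, both coding, and 21 share a last exon of 2033 bases. In the alpha cluster 15 genes share coding exons of the same lengths, 59 and 89 bases. The sequences below are those of the coding shared exons on the plus strand of GRCh38, read from the GENCODE transcripts of PCDHGC3 and PCDHAC2.
Gamma, chr5:141494807-141494865: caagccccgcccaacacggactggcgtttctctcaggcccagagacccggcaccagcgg
Alpha, chr5:140978949-140979007: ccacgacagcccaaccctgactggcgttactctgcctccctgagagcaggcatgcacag
Gamma, chr5:141505393-141505481: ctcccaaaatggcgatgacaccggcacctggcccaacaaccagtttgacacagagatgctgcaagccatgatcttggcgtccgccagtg
Alpha, chr5:140982475-140982563: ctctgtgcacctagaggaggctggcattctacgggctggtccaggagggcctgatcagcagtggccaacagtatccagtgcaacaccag
Aligned without gaps, the first pair matched at 39 of 59 positions (66.1%) and the second at 29 of 89 (32.6%).

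A read within these exons cannot be given to 1 gene. The bases shared among the gamma genes came to 2181 in most members, and exon bases annotated to no other gene made up 35.6% to 72.4% of a listed gamma gene's length. If shared-exon reads had been added in full to every gene, no gamma gene could hold fewer counts than those exons. The listed gamma genes ran from 2 to 1141 counts in OVCAR3-OE and from 0 to 929 in OVCAR3-NC, so such reads were not added to all of them, and how they were handled is not given in the sources used here. The gene lengths implied by the deposited FPKM values (CPM per kilobase of gene) did include the shared exons: they lay within 5 bases of the GENCODE exon total in 11 of 19 gamma genes and within 150 bases in all. FPKM values below may thus understate levels, and each member's count is uncertain as far as shared bases entered it.

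Nearly all counts of the family came from the gamma cluster, and most of these from 1 gene. The 19 gamma genes together held 1883 counts in OVCAR3-OE and 1456 in OVCAR3-NC. The 4 listed alpha genes together held 9 counts in OVCAR3-OE and 5 in OVCAR3-NC. PCDHAC1, a C-type alpha gene, had 6 and 2 counts in OVCAR3-OE and OVCAR3-NC, and PCDHAC2, the other C-type alpha gene, had 2 in each. PCDHA9 and PCDHA11 had a single count each, PCDHA9 in OVCAR3-OE and PCDHA11 in OVCAR3-NC. The only listed beta gene, PCDHB2, had 1 count in OVCAR3-OE and 4 in OVCAR3-NC. For scale, a count of 3, the 1-sided limit that a count of 0 allows, equals 0.0627 CPM in OVCAR3-OE and 0.0692 CPM in OVCAR3-NC. No alpha or beta gene held enough counts for a ratio, for which 50 over both libraries were asked. In such bulk libraries, fewer cells that express a gene and less RNA per cell cannot be told apart, and reads from antisense transcripts cannot be told apart where the strand setting is unknown.

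At 1 CPM or more stood 5 members in OVCAR3-OE and 4 in OVCAR3-NC. PCDHGC3, PCDHGB6, PCDHGB7 and PCDHGA6 reached it in both, and PCDHGA10 was at 1.00 CPM in OVCAR3-OE and 0.923 CPM in OVCAR3-NC, on either side of the line. PCDHGC3 was the only member above 1 FPKM in either library. Of the 24 genes, 6 had at least 50 counts over both libraries, all of them gamma genes.

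**Figure D1:**
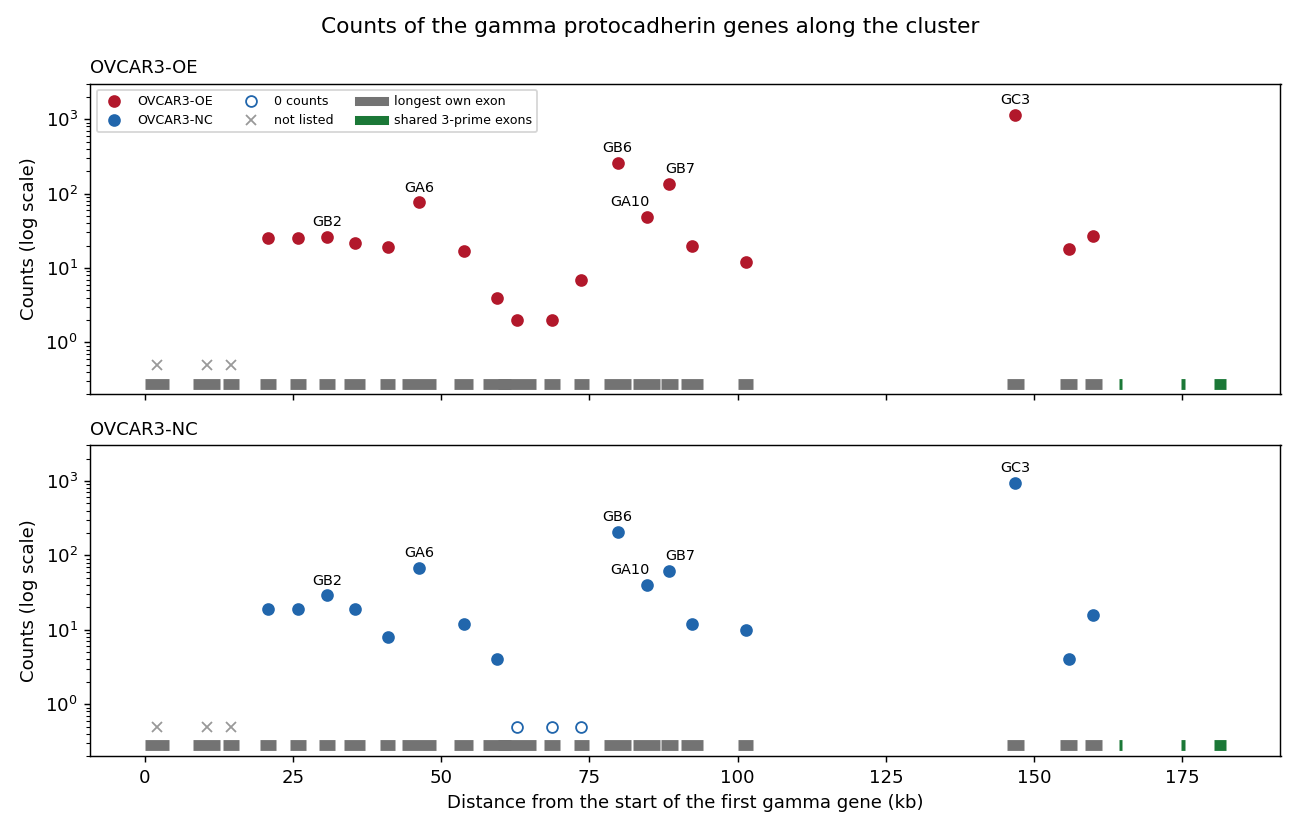
Counts of each gamma gene (log axis) against the position of its longest own exon, in kilobases from the start of the first gamma gene, with OVCAR3-OE above OVCAR3-NC. Open circles mark 0 counts, crosses mark genes with no row, and bars at the bottom mark own and shared exons. PCDHGC3 stands at 1141 counts in OVCAR3-OE and 929 in OVCAR3-NC, above all others, while the genes from PCDHGB4 to PCDHGA9 hold 7 counts or fewer in each library.

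PCDHGC3 (ENSG00000240184, chr5:141475947-141512979) is a C-type gamma gene, known for expression outside the nervous system and, from mouse studies, for damping Wnt signalling through AXIN1. It had 1141 counts, 4.38 FPKM (4.13 to 4.64), in OVCAR3-OE and 929 counts, 3.96 FPKM (3.71 to 4.22), in OVCAR3-NC. Its FPKM was higher than that of 51.0% of the 14157 genes with at least 50 counts in OVCAR3-OE and of 49.0% in OVCAR3-NC. By FPKM, which may understate its level, it was thus a gene of middling level among them. It held 60.6% of all gamma counts in OVCAR3-OE (58.3% to 62.8%) and 63.8% in OVCAR3-NC (61.3% to 66.3%), and these intervals overlap. Its C-type neighbours were far lower. PCDHGC4, which in mice is required for the survival of interneurons, had 18 counts in OVCAR3-OE and 4 in OVCAR3-NC, and PCDHGC5 had 27 in OVCAR3-OE and 16 in OVCAR3-NC.

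PCDHGB6 (ENSG00000253305, chr5:141408021-141512979) came next, at 258 counts, 0.793 FPKM (0.699 to 0.896), in OVCAR3-OE and 206 counts, 0.704 FPKM (0.611 to 0.807), in OVCAR3-NC. PCDHGB7 (ENSG00000254122, chr5:141417645-141512979) had 134 counts, 0.562 FPKM (0.471 to 0.666), in OVCAR3-OE and 62 counts, 0.289 FPKM (0.222 to 0.371), in OVCAR3-NC. Of the members, only PCDHGA10 lies between these variable B-type genes, so 3 of the 6 better covered members are neighbours. PCDHGA10 (ENSG00000253846, chr5:141412987-141512979), a variable A-type gene, had 48 counts, 0.151 FPKM (0.111 to 0.2), in OVCAR3-OE and 40 counts, 0.139 FPKM (0.0997 to 0.19), in OVCAR3-NC.

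PCDHGA6 (ENSG00000253731, chr5:141373914-141512979), also A-type, had 76 counts, 0.2 FPKM (0.157 to 0.25), in OVCAR3-OE and 67 counts, 0.196 FPKM (0.152 to 0.248), in OVCAR3-NC. PCDHGB2 (ENSG00000253910, chr5:141360042-141512979), a B-type gene, had 26 counts, 0.113 FPKM (0.0735 to 0.165), in OVCAR3-OE and 29 counts, 0.14 FPKM (0.0934 to 0.2), in OVCAR3-NC. By FPKM the order PCDHGC3, PCDHGB6, PCDHGB7, PCDHGA6 held in both libraries, and the intervals of each of these neighbours were apart except those of PCDHGB7 and PCDHGA6 in OVCAR3-NC. These FPKM intervals use the counts as deposited. They would be wider if each fragment was counted once per mate, and whether they stay apart was not checked on that basis. The intervals of PCDHGA6, PCDHGA10 and PCDHGB2 overlapped in each library, and PCDHGA10 and PCDHGB2 were almost equal in OVCAR3-NC.

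Levels were also set per kilobase of exon that no other gene shares. On that scale PCDHGC3 was at 7.33 CPM per kilobase in OVCAR3-OE and 6.60 in OVCAR3-NC, PCDHGB6 at 1.17 and 1.03, PCDHGB7 at 1.01 and 0.514, and PCDHGA6 at 0.277 and 0.27, each with OVCAR3-OE first. The order of these members was the same as by FPKM. PCDHGA10 was at 0.225 in OVCAR3-OE and 0.207 in OVCAR3-NC, and PCDHGB2 at 0.21 and 0.259, in OVCAR3-NC close to PCDHGA6. PCDHGB1, which has under 50 counts, reached 0.256 CPM per own kilobase in OVCAR3-OE and 0.215 in OVCAR3-NC, close to PCDHGA6.

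**Figure D2:**
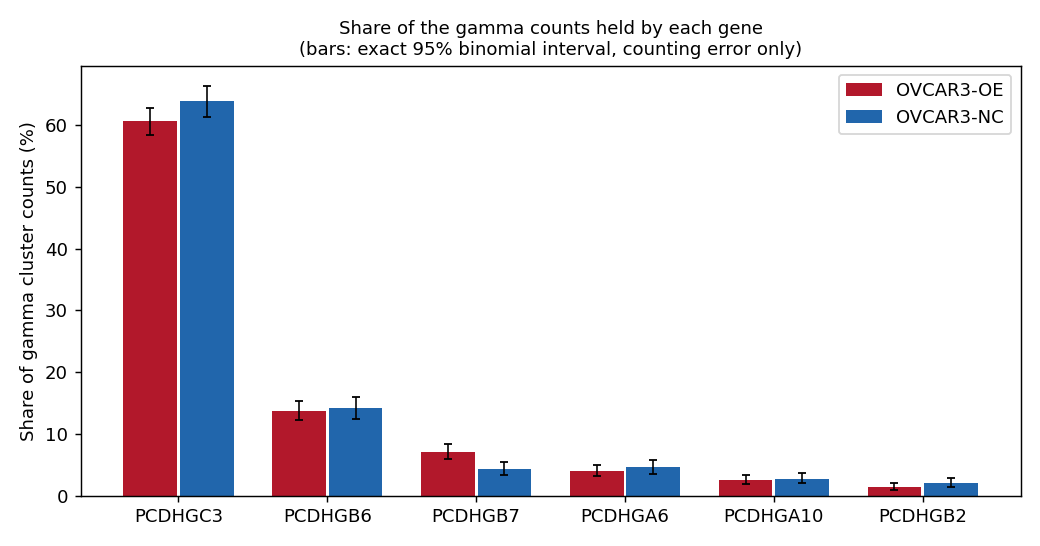
Share of all gamma cluster counts (%) held by each of the 6 genes with at least 50 counts, for OVCAR3-OE (left bar of each pair) and OVCAR3-NC (right bar), with exact 95% binomial intervals. PCDHGC3 holds 60.6% and 63.8% in OVCAR3-OE and OVCAR3-NC, and PCDHGB7 is the gene whose intervals do not overlap on the counts as deposited. The intervals would be wider if each fragment was counted once per mate, and their overlap was not checked on that basis.

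The promoters of these genes are shown because each gene is read from its own. RefSeq (GRCh38.p14) gave 52 start sites for 47 members. The sequences below are the 100 bases before the start of the 5 members at 1 CPM or more in OVCAR3-OE (for PCDHGB6 the first of its starts) and, for contrast, of the low neighbour PCDHGC4 (also the first start), 5′ to 3′ on the plus strand. Capitals mark every CGCT in the direction of the gene. CGCT is known as the core of a conserved element of many clustered protocadherin promoters, but a marked CGCT need not be that element.
PCDHGC3, chr5:141475866-141475965: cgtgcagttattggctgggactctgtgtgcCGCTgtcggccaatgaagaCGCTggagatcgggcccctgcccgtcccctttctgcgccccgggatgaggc
PCDHGB6, chr5:141407921-141408020: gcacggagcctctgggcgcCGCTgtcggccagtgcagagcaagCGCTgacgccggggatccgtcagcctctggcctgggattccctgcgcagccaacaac
PCDHGB7, chr5:141417577-141417676: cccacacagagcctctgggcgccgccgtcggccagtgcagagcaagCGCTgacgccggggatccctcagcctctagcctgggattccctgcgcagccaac
PCDHGA6, chr5:141373791-141373890: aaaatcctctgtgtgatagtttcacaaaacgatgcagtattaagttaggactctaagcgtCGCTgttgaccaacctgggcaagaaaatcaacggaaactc
PCDHGA10, chr5:141412887-141412986: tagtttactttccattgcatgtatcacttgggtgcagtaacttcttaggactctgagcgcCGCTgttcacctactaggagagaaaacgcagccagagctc
PCDHGC4, chr5:141484930-141485029: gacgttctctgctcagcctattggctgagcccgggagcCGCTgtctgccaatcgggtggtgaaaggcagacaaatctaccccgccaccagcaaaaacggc
Searched on both strands, CGCT was in 46 of 52 member windows (88.5%) and in 44.7% of 35064 windows of other genes. Read only in the direction of the gene it was in 84.6% of member windows and 28.0% of the others, although the member windows had a lower median GC content, 47% against 61%.

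The longer word CGCTGT, which contains CGCT, was picked because it recurred in these same member promoters. It was in 23 of 52 member windows (44.2%) and 3.59% of the others, a gap that this way of picking favours in advance. It was in 16 of 25 gamma windows, 6 of 13 alpha windows and 1 of 14 beta windows. It was in 4 of 7 windows (57.1%) of the genes with at least 50 counts and in 12 of 18 windows (66.7%) of the other gamma genes. PCDHGC4, at 18 counts in OVCAR3-OE and 4 in OVCAR3-NC, holds it, and PCDHGB7 does not. These matches describe letters only.

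Of the 6 members with at least 50 counts, PCDHGB7 differed most between the libraries, at 134 counts in OVCAR3-OE against 62 in OVCAR3-NC. Its OVCAR3-OE over OVCAR3-NC ratio of scaled CPM was 1.96 (1.44 to 2.69). Low counts were more often even than odd in both libraries, as happens where each fragment counts once per mate, and from halved counts the interval was 1.26 to 3.10. In the authors' deposited table the log2 fold change of PCDHGB7 is 0.96. With 1 added to each FPKM value the ratio was 1.21, under 1.5-fold. Its share of the gamma counts was 7.12% in OVCAR3-OE (6.0% to 8.37%) and 4.26% in OVCAR3-NC (3.28% to 5.43%). These share intervals use the counts as deposited and would be wider from halved counts.

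The other 5 members stayed within 1.5-fold. PCDHGC3 had a ratio of 1.11 (1.02 to 1.21), which with halved counts had an interval of 0.982 to 1.26, reaching 1. PCDHGB6 stood at 1.13 (0.94 to 1.37), PCDHGA10 at 1.09 (0.699 to 1.70), PCDHGA6 at 1.03 (0.73 to 1.45) and PCDHGB2 at 0.812 (0.459 to 1.43). The intervals of PCDHGB6, PCDHGA10, PCDHGA6 and PCDHGB2 all hold 1 and leave the direction of any difference undetermined. At these counts those of the last 3 also leave its size undetermined: that of PCDHGB2, for example, runs from 0.459 to 1.43.

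Of the 6 members, 1 was at least 1.5-fold different, against 6.24% of all 14157 genes with at least 50 counts (3.52% higher and 2.72% lower in OVCAR3-OE). Low counts scatter more, and among the 4126 genes with 50 to 500 counts that share was 18.7% (10.2% higher and 8.58% lower), against 1 of 5 members in the same range. A single member past 1.5-fold is thus close to the share among genes of similar counts. The ratio was above 1 in 5 of the 6 members, against 51.1% of all such genes, and in 4 of the 5 with 50 to 500 counts, against 49.4% of genes in that range. A counting interval that left out 1 was found for 2 of 6 members, PCDHGB7 and PCDHGC3, against 41.4% of all genes with at least 50 counts. Both lay above 1, where 22.8% of all genes did, and none below 1, where 18.6% did. Between 50 and 500 counts this held for 1 of 5 members, PCDHGB7, against 23.2% of genes (12.1% above and 11.1% below 1). The median log2 ratio of the 6 was 0.14, with single values from -0.30 to 0.97, against 0.0047 over all genes with at least 50 counts.

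**Figure D3:**
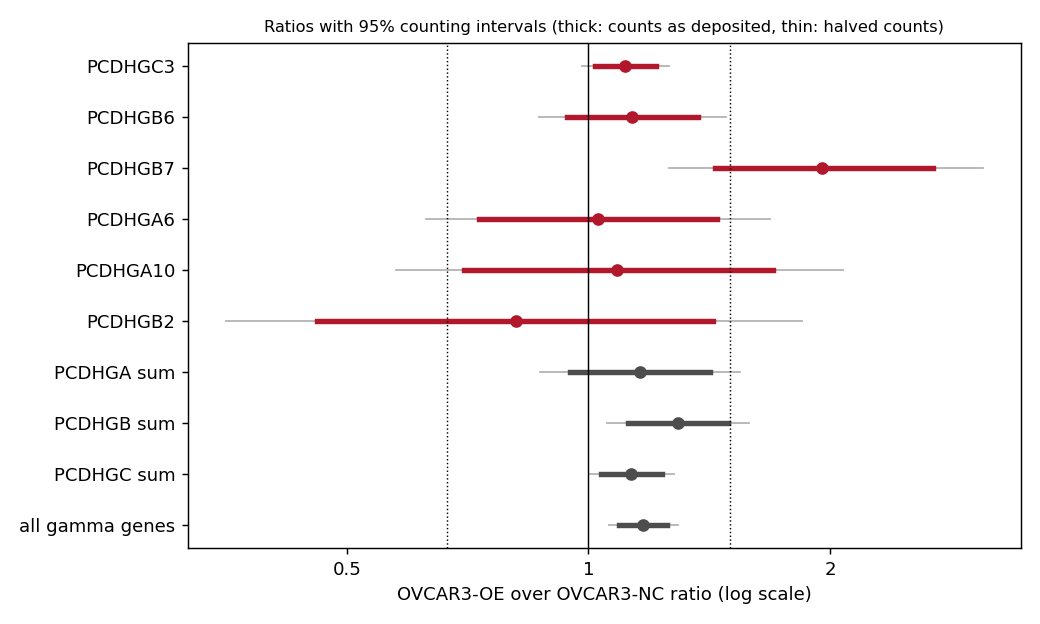
OVCAR3-OE over OVCAR3-NC ratios (log axis) of the 6 members with at least 50 counts and of summed counts, with 95% counting intervals from the counts as deposited (thick) and from halved counts (thin). The solid line marks 1 and dotted lines mark 1.5-fold in each direction, and PCDHGB7, at 1.96, is the member beyond 1.5-fold.

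**Figure D4:**
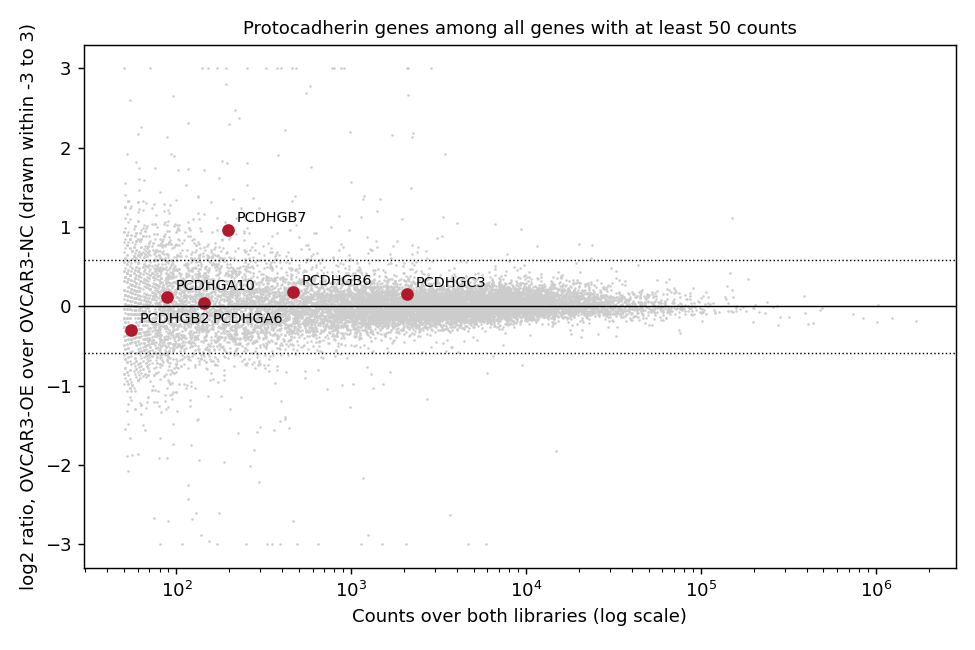
Log2 ratio of OVCAR3-OE over OVCAR3-NC against counts over both libraries (log axis) for the 14157 genes with at least 50 counts, with the 6 protocadherins in red and dotted lines at 1.5-fold. PCDHGB7, at a log2 ratio of 0.97, lies beyond the line within the wide scatter of low-count genes, and the other 5 lie inside it.

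Summed over the cluster, gamma counts were higher in OVCAR3-OE, 1883 against 1456 in OVCAR3-NC, a ratio of 1.17 (1.09 to 1.25, or 1.06 to 1.29 from halved counts). The B-type genes summed to 468 counts in OVCAR3-OE and 328 in OVCAR3-NC, with a ratio of 1.29 (1.12 to 1.49). Without PCDHGB7 the B-type genes summed to 334 in OVCAR3-OE and 266 in OVCAR3-NC, with a ratio of 1.14 (0.965 to 1.34), whose interval holds 1. The C-type genes summed to 1186 in OVCAR3-OE and 949 in OVCAR3-NC, with a ratio of 1.13 (1.04 to 1.23, or 1.001 to 1.28 from halved counts). PCDHGC3 alone held 1141 of these counts in OVCAR3-OE and 929 in OVCAR3-NC. The A-type genes summed to 229 in OVCAR3-OE and 179 in OVCAR3-NC, with a ratio of 1.16 (0.948 to 1.42), whose interval holds 1. Without PCDHGC3 the gamma ratio was 1.27 (1.14 to 1.43), and without PCDHGB7 it was 1.14. Without both it was 1.18 (1.05 to 1.34), and halved counts gave an interval of 0.995 to 1.41, which holds 1.

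Most gamma genes too low for ratios of their own also had more counts in OVCAR3-OE. These 13 genes, with at most 27 counts in OVCAR3-OE and 19 in OVCAR3-NC each, summed to 200 counts in OVCAR3-OE and 123 in OVCAR3-NC, a ratio of 1.47 (1.17 to 1.86, or 1.06 to 2.06 from halved counts). The table lists no gene at 0 in both libraries, so genes with counts in 1 library only could come out in no other direction, and directions were counted only where the libraries together held 20 counts or more. The CPM was higher in OVCAR3-OE in all 9 such gamma genes under 50 counts, with a summed ratio of 1.41 (1.11 to 1.79). Among the 2492 other genes in that range, 50.8% had the higher CPM in OVCAR3-OE and the summed ratio was 1.01. PCDHGB4 had 4 counts in each library. The widest gaps in counts were those of PCDHGC4, with 18 in OVCAR3-OE and 4 in OVCAR3-NC, PCDHGB3, with 19 and 8, and PCDHGC5, with 27 and 16. PCDHGA9 had 7 counts in OVCAR3-OE and 0 in OVCAR3-NC, and PCDHGA8 and PCDHGB5 had 2 in OVCAR3-OE and 0 in OVCAR3-NC. These genes share exons and a locus, so they are not independent observations, and which of them were low was read from the same counts.

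The remaining 6 low genes differed by at most 8 counts. PCDHGB1 and PCDHGA4 each had 25 counts in OVCAR3-OE and 19 in OVCAR3-NC, and PCDHGA5 had 22 and 19. PCDHGA7 had 17 counts in OVCAR3-OE and 12 in OVCAR3-NC, PCDHGA11 had 20 and 12, and PCDHGA12 had 12 and 10.

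The genes around the clusters gave a local comparison. GENCODE places 98 other genes between or within 1 Mb of the clusters, of which 57 were listed and 33 had at least 50 counts. One was at least 1.5-fold higher in OVCAR3-OE and none at least 1.5-fold lower, against 3.52% and 2.72% of all genes, shares not matched for counts. It was ANKHD1-EIF4EBP3, a readthrough gene that shares its exons with its parents, with 53 counts in OVCAR3-OE and 28 in OVCAR3-NC. It stood at a ratio of 1.71 (1.06 to 2.81), and halved counts gave an interval of 0.865 to 3.54. The others furthest from 1 were NRG2, a neuregulin, at 1.21 (0.874 to 1.67), ANKHD1-DT at 0.839 (0.525 to 1.34) and PCDH12, a non-clustered protocadherin of endothelial cells, at 1.16 (0.665 to 2.04).

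The median log2 ratio of these 33 neighbours was -0.01. TAF7, a general transcription factor subunit whose gene lies between the beta and gamma clusters, had 4723 counts in OVCAR3-OE and 3944 in OVCAR3-NC, a ratio of 1.08 (1.04 to 1.13). DIAPH1, an actin-nucleating formin just past the gamma cluster, had 11172 counts in OVCAR3-OE and 9489 in OVCAR3-NC, a ratio of 1.07 (1.04 to 1.10). These 2 genes were named for their position, with values known.

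**Figure D5:**
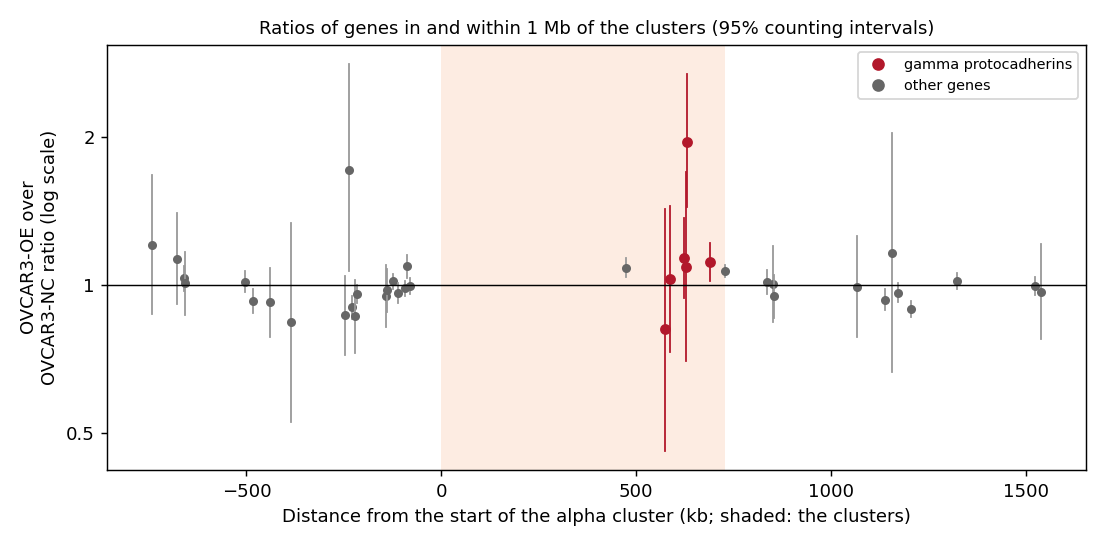
OVCAR3-OE over OVCAR3-NC ratios (log axis) with 95% counting intervals for the 6 gamma genes (red) and the 33 other genes with at least 50 counts (grey) in and within 1 Mb of the clusters, against distance from the start of the alpha cluster. The clusters are shaded, and most neighbours lie close to 1, with PCDHGB7 at 1.96 and ANKHD1-EIF4EBP3 at 1.71 furthest above it.

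Of 28 chosen regulators of these promoters, 26 had at least 50 counts, with a median log2 ratio of 0.08. Their counting intervals lay above 1 in 16 and below 1 in 3, against 22.8% and 18.6% of all genes with at least 50 counts. These shares are not matched for counts. They include genes with 50 to 500 counts, of which 12.1% lay above and 11.1% below 1, whereas all 26 regulators held more than 500 counts, where intervals are narrower. Of the 14157 genes, 4126 held 50 to 500 counts. They made up 499 of the 3228 genes with intervals above 1 and 457 of the 2628 below 1. TET1, which oxidises methylated cytosine, was the 1 of 26 at least 1.5-fold different, against 6.24% of all genes. That share is not matched for counts either: 773 of the 883 genes behind it held 50 to 500 counts. TET1 had 373 counts in OVCAR3-OE and 217 in OVCAR3-NC, a ratio of 1.56 (1.31 to 1.85). DNMT3B, the methyltransferase that in mice methylates protocadherin promoters, had 3665 counts in OVCAR3-OE and 2571 in OVCAR3-NC, a ratio of 1.29 (1.23 to 1.36). NIPBL, the cohesin loader, was at 1.21 (1.17 to 1.25) and TET2, a relative of TET1, at 1.20 (1.13 to 1.27). CTCF and SMCHD1 were added for their role, with values known. CTCF stood at 12.3 FPKM in both libraries, with a ratio of 1.01 (0.97 to 1.04), and SMCHD1, which in mice silences protocadherin genes, had 11516 counts in OVCAR3-OE and 9383 in OVCAR3-NC, a ratio of 1.11 (1.08 to 1.14).

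All 24 chosen cytoplasmic partners and processing enzymes had at least 50 counts, and 1 was at least 1.5-fold different in each direction, against 3.52% higher and 2.72% lower among all genes. These shares rest mostly on low counts: 419 of the 498 higher and 354 of the 385 lower genes held 50 to 500 counts. Intervals lay above 1 in 8 and below 1 in 5, against 22.8% and 18.6% of all genes, shares likewise not matched for counts. PSEN2, a gamma-secretase subunit, had 126 counts in OVCAR3-OE and 74 in OVCAR3-NC, a ratio of 1.54 (1.15 to 2.08). CYFIP1, a subunit of the actin-regulating WAVE complex, had 482 in OVCAR3-OE and 743 in OVCAR3-NC, a ratio of 0.587 (0.523 to 0.659). PTK2B, a relative of focal adhesion kinase, was at 0.764 (0.561 to 1.04), and ADAM10, the protease that in mice sheds the gamma ectodomain, at 1.22 (1.18 to 1.26). The median log2 ratio of the list was 0.03.

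Among 22 chosen non-clustered protocadherins and related large cadherins, 18 were listed and 13 had at least 50 counts, with a median log2 ratio of 0.11. None of the 13 was at least 1.5-fold higher, and 1 was at least 1.5-fold lower, against 3.52% higher and 2.72% lower among all genes and 10.2% and 8.58% among genes with 50 to 500 counts. Counting intervals lay above 1 in 22.8% of all genes with at least 50 counts and below 1 in 18.6%, shares again not matched for counts. Among the 13, intervals lay above 1 in 6, FAT1 and CELSR1 with 13595 and 4247 counts in OVCAR3-OE among them, and below 1 in 1. This was CDHR1, a photoreceptor cadherin, with 48 counts in OVCAR3-OE and 69 in OVCAR3-NC, a ratio of 0.63 (0.426 to 0.923, or 0.358 to 1.09 from halved counts). FAT2 stood at 0.702 (0.424 to 1.15), PCDH7 at 1.34 (1.09 to 1.66) and FAT1, the giant cadherin of epithelial and mesenchymal cells, at 1.24 (1.20 to 1.27). FAT1 was at 17.5 FPKM in OVCAR3-OE and 14.3 FPKM in OVCAR3-NC. PCDH10, a non-clustered protocadherin, was at 3.0 FPKM in OVCAR3-OE and 2.76 FPKM in OVCAR3-NC, below PCDHGC3 at 4.38 and 3.96 FPKM in the same libraries.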

How the data were processed

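The authors' table holds, per the file headers, whole-number counts per gene and FPKM values of 28038 genes in 2 libraries. Its log2 fold change is likewise the authors' own, per the file headers. Reads were placed on GRCh38, as the submitters' processing notes say. The choice of aligner, counter, strand setting and annotation is not given in the sources used here. The kit marks strand with dUTP, per the labels' protocols. Among counts from 1 to 20, 63.3% were even in OVCAR3-OE and 64.1% in OVCAR3-NC.

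Libraries were scaled by TMM over all genes (edgeR 4.0.16, R 4.3.3). Ratios are OVCAR3-OE over OVCAR3-NC, without a pseudocount, where the libraries together held at least 50 counts, with exact Clopper-Pearson 95% intervals. FPKM intervals are exact Poisson ones. No molecular identifiers are described, so reads need not be independent molecules and intervals cover counting error only. Every member with 50 counts or more was named, and of each list the 4 with 50 counts or more furthest from 1. Other genes were named for their role, with values known. The members and lists were chosen with earlier results of these data known. Gene models came from GENCODE 29. Alternatives were other scalings (library totals, DESeq2 1.42.0), pseudocounts, minimums and folds. Python 3.11.15, numpy 2.4.6, pandas 2.3.3, scipy 1.17.1 and matplotlib 3.10.9 were used.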

Additional observations from a re-analysis of the deposited data

How the results depend on the processing

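With 1 library per group no replicate could be left out. No paired analysis was possible because each group has 1 sample. The ratio of summed gamma counts, 1.17, was between 1.14 and 1.17 with library totals, DESeq2 size factors, halved counts or only members with at least 50 counts, and 1.27 without PCDHGC3; without PCDHGB7, an alternative chosen after seeing the data, it was 1.14. The count of members at least 1.5-fold different, 1 of 6, was 0 with the authors' FPKM plus 1, where the ratio of PCDHGB7 was 1.21, 0 at a fold of 2, 0 of 2 with a minimum of 200 counts and 5 of 15 with a minimum of 10. The count of members with an interval off 1, 2 of 6, was 1 with halved counts and 1 of 2 with a minimum of 200. For all genes, no share was computed at a fold of 2 or at minimums of 10 and 200. The member counts at those settings therefore have no share to be read against, and low counts pass 1.5-fold more easily. No member's ratio changed sides of 1 under another scaling or pseudocount. Members at or above 1 CPM, 5 in OVCAR3-OE and 4 in OVCAR3-NC, became 9 in OVCAR3-OE and 6 in OVCAR3-NC at 0.5 CPM, 1 in each at 1 FPKM, and 18 in OVCAR3-OE and 17 in OVCAR3-NC at more than 3 counts. Low counts limit every member but PCDHGC3.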

Other observations

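The pseudogenes of the gamma cluster, which the rule leaves out, were listed too. PCDHGB8P had 9 counts in each library, and PCDHGB9P had 12 in OVCAR3-OE and 6 in OVCAR3-NC. SLC25A2, which lies with TAF7 between the beta and gamma clusters, had 0 counts in OVCAR3-OE and 2 in OVCAR3-NC.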
